A study of Rattus norvegicus with 24 samples.

Results

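The genes described here are 10 transcripts of the unfolded protein and amino acid stress responses in rat quadriceps muscle. They are Hspa5, Hsp90b1, Calr, Xbp1, Atf4, Ddit3, Trib3, Chac1, Asns and Sesn2. They were picked by gene symbol, with earlier results of these data known. Each symbol matched 1 of the 21067 genes in the deposited table. All 10 were among the 14772 genes tested, those with a mean of at least 0.1 FPKM over the libraries. FPKM is a read density, the fragments of a gene divided by its transcript length and by the total of the library.

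The 24 libraries of poly(A) RNA came from 24 Sprague-Dawley rats, 6 in each of 4 groups, with 1 library per rat. The rats were 6 weeks old when obtained, before habituation and the weeks of training, and were older when sampled. Control rats were fed normally and not trained. Treadmill rats trained on a treadmill with rising load and ended with a run to exhaustion. Catgut 1 rats had an absorbable thread embedded at the acupoints Yang Wa, Xie Qi, Qian Shen, Bai Hui, Qiang Feng and Han Gou before the same training and run, and catgut 2 rats had it at these points and at Fei Shu. All groups shared a short habituation to the treadmill. Each group held males and females according to the study, but the labels give no sex. No group received the thread without exercise, and none trained without the final run, so thread and exercise cannot be told apart in catgut against control, nor training and the final run in treadmill against control. The paper describes no rats given the ether anaesthesia and the needle without the thread, so these cannot be told apart in catgut against treadmill.

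When unfolded proteins build up in the endoplasmic reticulum (ER), the sensors IRE1, PERK and ATF6 are activated. IRE1 splices Xbp1 mRNA, ATF6 is cut to release a transcription factor, and both routes raise the transcription of ER chaperones. PERK phosphorylates the initiation factor eIF2alpha, as does GCN2 when amino acids run short. This lowers overall protein synthesis but favours translation of ATF4, which acts on genes of amino acid supply and on Ddit3, Trib3, Chac1 and Sesn2. Total mRNA in the deposited table reports neither Xbp1 splicing nor the translation of Atf4. In whole muscle, fewer cells of a type and less RNA per cell cannot be told apart.

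Stretches of promoters that hold 1 of 2 motifs known from these stress responses are shown. The 250 bases before and 50 bases after each start were read from RefSeq, build GRCr8, for 33469 promoters, among them 10 of 10 of these genes. The ER stress response element was searched as CCAAT, 9 bases of any kind, then CCACG, on both strands. It stood in 22 promoters of all, 0.0657%, and in 4 of the 10. These 4 are Hspa5, Hsp90b1, Xbp1 and Calr, and Hsp90b1 held it at 2 sites. The C/EBP-ATF response element, bound by ATF4 dimers, was searched as TGATGNAA on both strands. It stood in 1332 promoters, 3.98%, and in 2 of the 10, Trib3 and Chac1. Atf4, Ddit3, Asns and Sesn2 held neither motif in this window. A match describes letters and is no measured binding site. The stretches below run 5′ to 3′ along the gene, with the motif in capitals (for the ER stress response element, both of its outer parts), reading CGTGG and ATTGG, TTACATCA or TTGCATCA where the match is on the other strand.
Hspa5, chr3:38452953-38453011, plus strand: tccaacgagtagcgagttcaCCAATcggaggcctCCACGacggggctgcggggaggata
Hsp90b1, chr7:23012431-23012489, minus strand: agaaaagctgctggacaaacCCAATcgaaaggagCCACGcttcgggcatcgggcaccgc
Hsp90b1, chr7:23012327-23012385, minus strand: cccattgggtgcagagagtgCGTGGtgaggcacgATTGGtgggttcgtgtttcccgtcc
Xbp1, chr14:84604538-84604596, plus strand: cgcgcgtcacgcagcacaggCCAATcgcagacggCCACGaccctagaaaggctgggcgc
Calr, chr19:40213117-40213173, plus strand: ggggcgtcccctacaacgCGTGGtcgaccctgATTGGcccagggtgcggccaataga
Trib3, chr3:161275534-161275574, minus strand: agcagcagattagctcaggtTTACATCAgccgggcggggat
Chac1, chr3:126795944-126795991, plus strand: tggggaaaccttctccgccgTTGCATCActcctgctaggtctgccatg

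In the wider lists of pathway genes, the ER stress response element was found in 7 of 17 promoters of ER chaperones and folding enzymes. These were Calr, Canx, Creld2, Dnajc3, Ero1b, Hsp90b1 and Hspa5. The C/EBP-ATF element was found in 5 of 20 promoters of ATF4 targets of amino acid supply, beside 3.98% of all promoters. It was in 3 of 13 promoters of other ATF4 and stress-induced genes, Trib3 and Chac1 included. For stress sensors it was 2 of 17, for ER-associated degradation 1 of 11 and for ER chaperones 0 of 17.

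Total counts per library ran from 45945938 to 78278080. Libraries agreed closely within groups. The lowest median correlations to the own group were those of control replicate 4 (0.963) and treadmill replicate 2 (0.966). Muscle identity was checked with 8 of 10 listed markers found, which summed to between 74783 and 107822 FPKM in every library. Transcripts of other cells were far lower. The sum of 8 macrophage markers ran from 23.7 to 173 FPKM, highest in treadmill replicate 2 and, among controls, in control replicate 4 at 97.9. The sum of 5 fibroblast markers ran from 68.1 to 546 FPKM and was 536 in control replicate 4 and 467 in treadmill replicate 2. The sum of 7 liver transcripts reached 326 FPKM in treadmill replicate 3 and 215 in control replicate 2, and its highest value in the catgut groups was 0.786. Among the macrophage, fibroblast and liver markers 0 were listed at 0 in all libraries.

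At the adjusted threshold, 0 of the 10 genes differed between any 2 groups or over the 4 groups. In edgeR's quasi-likelihood test with Benjamini-Hochberg adjustment over 14772 genes, the lowest adjusted p among the 60 pairs of a gene and a comparison was 0.240, for Ddit3 in catgut 2 against control. Over the 4 groups together the lowest was 0.237, for Hspa5. At an unadjusted p under 0.05 stood 10 of the 60 pairs, in 5 genes (Hspa5, Hsp90b1, Ddit3, Chac1 and Sesn2). An exact permutation test of mean log2(FPKM + 1) gave p under 0.05 in 5 of the 60. Of these, Atf4 in catgut 2 against catgut 1 was not among the 10. DESeq2 called 1 of the 60, Hspa5 in catgut 1 against treadmill, and limma called 0. The 6 comparisons share libraries, so that the pairs are not independent.

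In treadmill against control 0.0542% of all genes passed the adjusted threshold, and 2 of the 10 had an unadjusted p under 0.05 against 9.12% of all genes. In catgut 1 against treadmill these shares of all genes were 0.0474% and 6.93%, with 2 of the 10 at the unadjusted threshold. For catgut 2 against treadmill they were 0.237% and 10.7%, again with 2 of the 10. In catgut 1 against control they were 0.0203% and 9.84%, with 2 of the 10. For catgut 2 against control they were 0.508% and 16.4%, with 1 of the 10. For catgut 2 against catgut 1 they were 0.00677% and 3.26%, with 1 of the 10. Over the 4 groups together 0.379% of all genes passed the adjusted threshold and 13% the unadjusted one, the latter with 2 of the 10, Hspa5 and Ddit3. In 0 of the 60 pairs were the groups fully apart, and over all genes and the 6 comparisons this was so in 0.59%.

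The study called a gene changed when the ratio of group mean FPKM was over 1.5 in either direction and the unadjusted p under 0.05. With the edgeR p, 1 of the 60 pairs met this, Chac1 in catgut 2 against catgut 1, where 1.25% of all genes did. None of the 10 did so in treadmill against control (2.85% of all genes), catgut 1 against treadmill (3.12%), catgut 2 against treadmill (3.76%), catgut 1 against control (4.62%) or catgut 2 against control (5.95%).

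**Figure D1:**
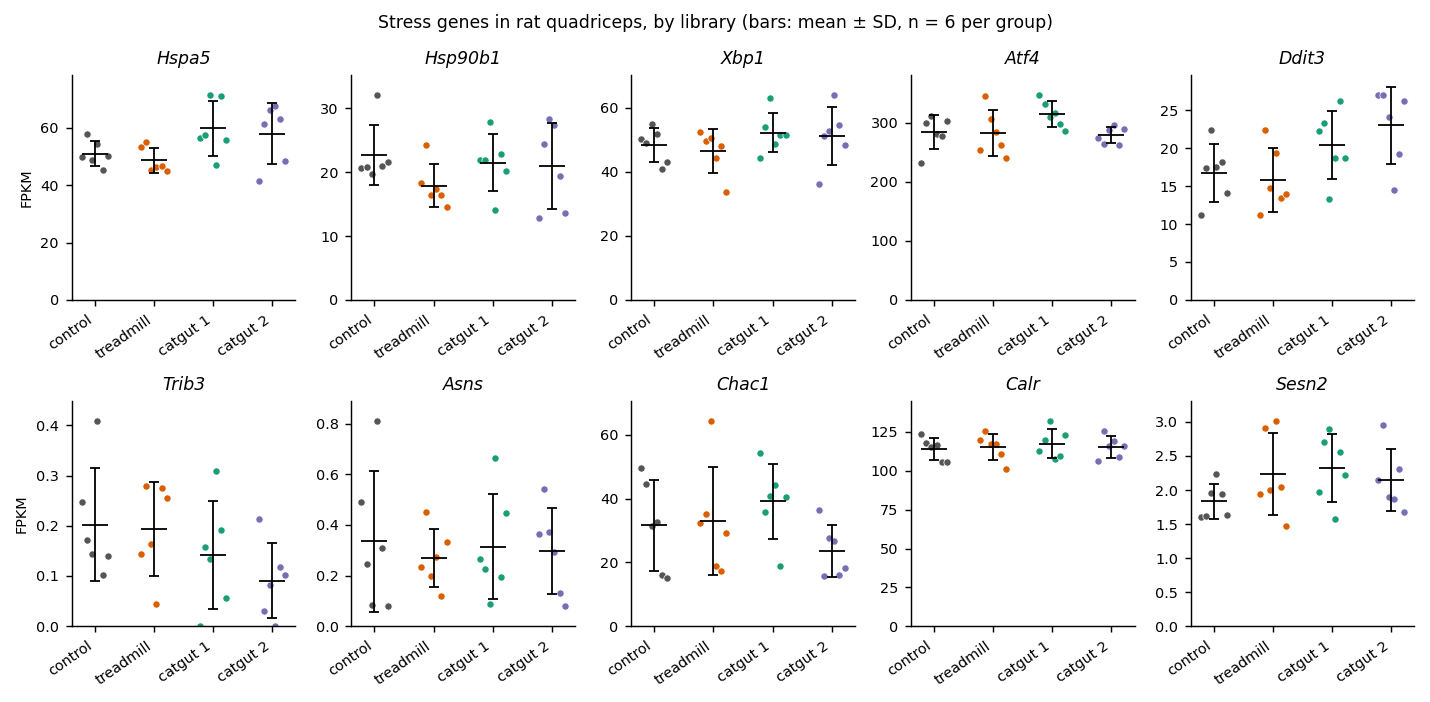
FPKM (linear axis from 0) of the 10 genes in each of the 24 libraries, with 1 panel per gene and 1 column of points per group. Black bars are the mean and SD of 6 libraries, and the 4 groups overlap in every panel.

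Hspa5 encodes BiP, the ER chaperone that binds unfolded proteins and holds the stress sensors inactive (ENSRNOG00000018294, listed on chromosome 3 from 13838304 to 13842762, plus strand; the build of the deposited coordinates is not given in the sources used here). Its level was 45.3, 50.1 and 57.7 FPKM (lowest, median, highest of 6 libraries) in control and 44.9, 46.5 and 55.0 in treadmill. It was 47.0, 56.9 and 71.5 FPKM in catgut 1 and 41.4, 62.1 and 67.6 in catgut 2. The 6 highest libraries of the 24 were all from the catgut groups, but the lowest was catgut 2 replicate 1, so the groups overlapped. Mean levels were 51.0 ± 4.39, 48.7 ± 4.37, 59.9 ± 9.65 and 58.0 ± 10.6 FPKM (SD, n = 6) in the order control, treadmill, catgut 1, catgut 2.

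Catgut 1 against treadmill gave the lowest unadjusted p of any of the 10 genes. The log2 fold change of Hspa5 was 0.27 (SE 0.0775, 95% interval 0.0985 to 0.433, edgeR adjusted p = 0.358), and 5 of 6 catgut 1 libraries lay above every treadmill library. An exact permutation test of mean log2(FPKM + 1) over 924 arrangements, two-sided, gave p = 0.0130 and 0.390 adjusted over 60 such tests, beside an unadjusted edgeR p of 0.00446. The smallest p this exact test can give is 0.00216. DESeq2 gave 0.26 with an adjusted p of 0.0433, in a comparison in which it called 139 genes and edgeR 7. Without treadmill replicate 2, edgeR gave 0.25 with an adjusted p of 0.382. Against control, the log2 fold change of catgut 1 was 0.22 (edgeR adjusted p = 0.460, exact permutation p = 0.0801). Catgut 2 stood at 0.21 against treadmill (edgeR adjusted p = 0.389, exact permutation p = 0.0931) and 0.17 against control (edgeR adjusted p = 0.424). Treadmill against control was -0.04, with a 95% interval of -0.209 to 0.123. The differences that share the treadmill or the control libraries are not independent of each other.

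Hsp90b1 encodes GRP94, the HSP90 chaperone of the ER lumen (ENSRNOG00000026963, chromosome 7 from 27226569 to 27240533, minus strand). Its level was 19.7, 20.9 and 32.1 FPKM (lowest, median, highest) in control and 14.6, 16.9 and 24.3 in treadmill. It was 14.1, 21.9 and 27.8 in catgut 1 and 12.9, 21.9 and 28.3 in catgut 2. Of the 6 treadmill libraries 5 lay below every control library, while treadmill replicate 2, at 24.3 FPKM, lay above 5 of the controls. The highest control value was that of control replicate 4. These 2 libraries are the ones with the lowest correlations to their groups and with the highest fibroblast and macrophage sums of their groups.

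In treadmill against control the log2 fold change of Hsp90b1 was -0.31 (SE 0.0936, 95% interval -0.514 to -0.109, edgeR adjusted p = 0.410). The exact permutation test gave p = 0.0346 and 0.416 adjusted over the 60 tests, beside an unadjusted edgeR p of 0.00562. Leaving out control replicate 4 and treadmill replicate 2 together gave -0.29 with an adjusted p of 0.241. Single omissions moved the value between -0.36 (without treadmill replicate 2) and -0.24 (without control replicate 4). Catgut 1 against treadmill stood at 0.23 (edgeR adjusted p = 0.676, exact permutation p = 0.162), and catgut 2 against treadmill at 0.19 (edgeR adjusted p = 0.729). Against control, catgut 1 stood at -0.08 and catgut 2 at -0.13 (adjusted p = 0.876 and 0.759). Deviations of Hsp90b1 from its group means went with those of the summed fibroblast markers (r = 0.63 on log2(FPKM + 1), 0.53 on the log2 CPM, counts per library total scaled by TMM, 24 libraries) and of the macrophage markers (r = 0.59 and 0.49), and their part in the result was not tested.

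Calr encodes calreticulin, the calcium-binding lectin chaperone of the ER (ENSRNOG00000003029, chromosome 19 from 25956771 to 25961666, minus strand). It was the steadiest of the 10. Its level was 105, 116 and 124 FPKM (lowest, median, highest) in control, 101, 117 and 125 in treadmill, 107, 116 and 132 in catgut 1 and 106, 116 and 126 in catgut 2. The group means lay between 114 and 117 FPKM, and all 4 groups covered nearly the same range. Its log2 fold changes ran from -0.03 to 0.04 over the 6 comparisons. The interval of treadmill against control, as a fold, was 0.924 to 1.15.

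The SD of Calr within groups was 0.0993 on the log2(FPKM + 1) scale. Only 5.86% of 700 genes with a mean level within 2-fold of its own had a smaller one. On the TMM-scaled log2 CPM, which do not compress low levels, 0.508% of all tested genes had a smaller SD.

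Xbp1 encodes the transcription factor made active when IRE1 splices its mRNA (ENSRNOG00000010298, chromosome 14 from 85753760 to 85758145, plus strand). Its level was 41.0, 49.6 and 54.9 FPKM (lowest, median, highest) in control and 33.7, 49.0 and 52.5 in treadmill. It was 44.5, 51.6 and 63.1 in catgut 1 and 36.4, 52.1 and 64.1 in catgut 2. The 2 highest values were those of catgut 2 replicate 4 and catgut 1 replicate 3, the lowest that of treadmill replicate 6, and the groups overlapped throughout. Its largest log2 fold change was 0.14, in catgut 1 against treadmill (95% interval -0.0505 to 0.335, edgeR adjusted p = 0.846).

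**Figure D2:**
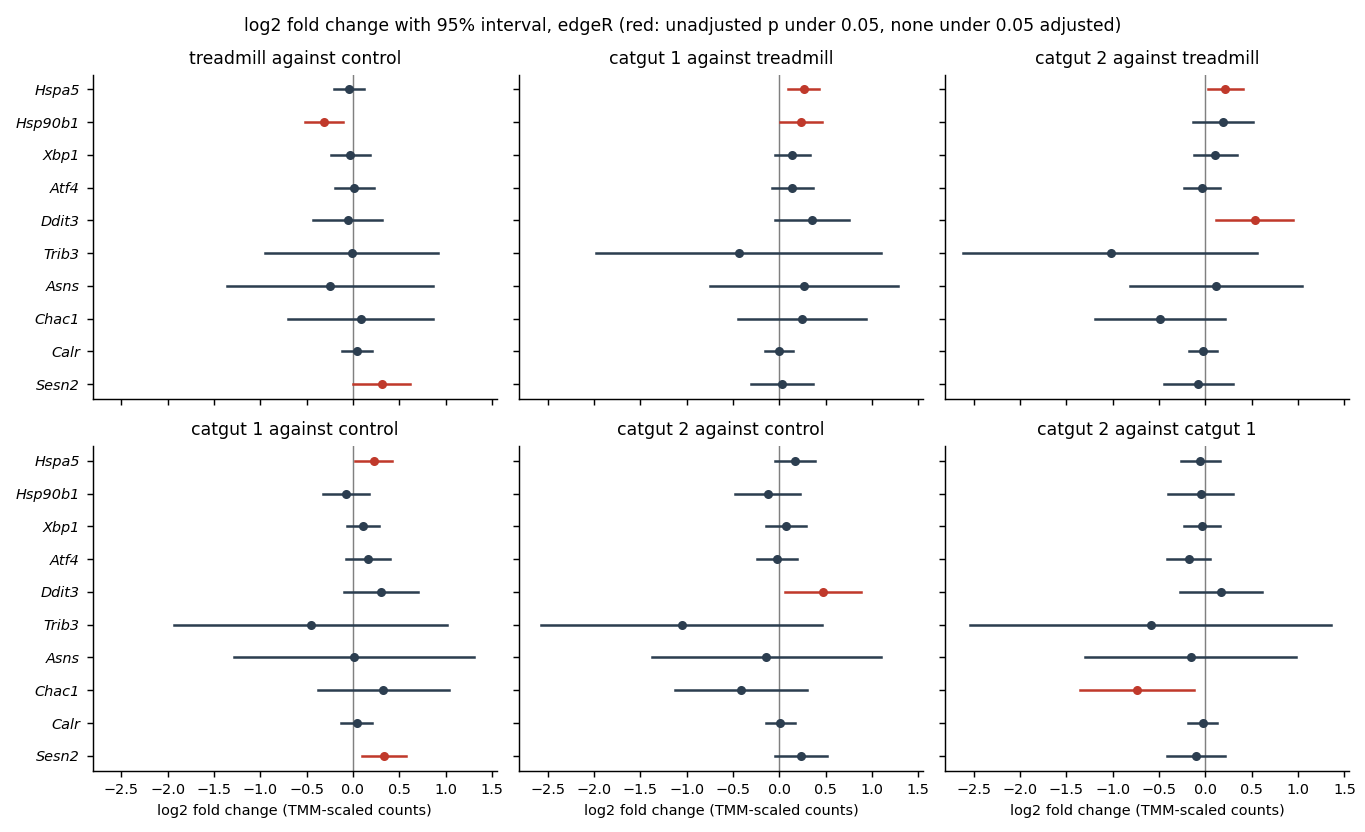
log2 fold changes of the 10 genes (points) with 95% intervals (lines) from edgeR in the 6 comparisons, on a common axis of log2 fold change. Red marks the 10 pairs with an unadjusted p under 0.05, none of which passed after adjustment, and the intervals of Trib3 and Asns are the widest.

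Atf4 encodes the transcription factor at the centre of the integrated stress response (ENSRNOG00000017801, chromosome 7 from 121480723 to 121482772, plus strand). It had the highest level of the 10, with rank 238 by mean FPKM among the genes of the table. It measured 232, 290 and 311 FPKM (lowest, median, highest) in control, 241, 273 and 346 in treadmill, 286, 313 and 347 in catgut 1 and 263, 281 and 297 in catgut 2. The catgut 1 libraries lay highest on average, at 315 ± 22.2 FPKM (SD, n = 6), and 3 of 6 catgut 2 libraries lay below all of them. Between catgut 2 and catgut 1 the exact permutation test gave p = 0.0130 and 0.390 adjusted over the 60 tests. The edgeR test, on TMM-scaled counts, gave a log2 fold change of -0.18 with an adjusted p of 1. Treadmill against control was 0.01, with a 95% interval of -0.195 to 0.224.

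Ddit3 encodes CHOP, a transcription factor induced through ATF4 in lasting ER stress (ENSRNOG00000006789, chromosome 7 from 70580198 to 70585084, plus strand). Its level was 11.2, 17.5 and 22.4 FPKM (lowest, median, highest) in control and 11.2, 14.3 and 22.4 in treadmill. It was 13.3, 20.5 and 26.2 in catgut 1 and 14.5, 25.1 and 27.0 in catgut 2. Of the 6 catgut 2 libraries 4 lay above every treadmill and every control library, and the other 2 lay among them.

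The log2 fold change of Ddit3 in catgut 2 against treadmill was 0.53 (SE 0.192, 95% interval 0.114 to 0.946, edgeR adjusted p = 0.317). The exact permutation test gave p = 0.0325 and 0.416 adjusted over the 60 tests, beside an unadjusted edgeR p of 0.0164. Against control the log2 fold change of catgut 2 was 0.47 (edgeR adjusted p = 0.240, unadjusted 0.0283), and the exact permutation p was 0.0519. Catgut 1 stood at 0.36 against treadmill and 0.30 against control (adjusted p = 0.783 and 0.624), and treadmill against control at -0.06. Catgut 2 against catgut 1 was 0.17, with a 95% interval of -0.271 to 0.607. Ddit3 met the criterion of the study in catgut 2 against treadmill only when treadmill replicate 2, treadmill replicate 4 or catgut 2 replicate 4 was left out. Deviations of Ddit3 went with the summed erythroid transcripts (r = 0.51 on log2(FPKM + 1), 0.66 on the TMM scale), whose median was 505 FPKM in control, 763 in treadmill, 910 in catgut 1 and 891 in catgut 2. Their part in the result was not tested.

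Chac1 encodes a gamma-glutamylcyclotransferase that breaks down glutathione (ENSRNOG00000014387, chromosome 3 from 111160205 to 111163425, plus strand). Its level was 15.2, 32.0 and 49.5 FPKM (lowest, median, highest) in control and 17.4, 30.8 and 64.2 in treadmill. It was 18.9, 40.6 and 54.2 in catgut 1 and 15.8, 22.6 and 36.4 in catgut 2. The highest value was that of treadmill replicate 3, the library with the highest liver sum. Over the 24 libraries the deviations of Chac1 from its group means had r = 0.52 with those of the liver sum on log2(FPKM + 1) and 0.51 on the TMM scale, and the part of these transcripts in its values was not tested. Catgut 1 held 5 libraries over 35 FPKM and catgut 2 held 1.

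Of all comparisons of the 10 genes, that of Chac1 in catgut 2 against catgut 1 was the one that met the criterion of the study. Mean levels were 23.5 ± 8.16 and 39.1 ± 11.7 FPKM (SD, n = 6), a ratio of 0.602, and 3 of 6 catgut 2 libraries lay below every catgut 1 library. The log2 fold change was -0.74 (SE 0.286, 95% interval -1.36 to -0.124, edgeR p = 0.0223 and 1 adjusted), and the exact permutation test gave p = 0.0303 and 0.416 adjusted over the 60 tests. Leaving out single libraries gave values from -0.98 to -0.60 and the criterion was no longer met without catgut 1 replicate 1 or without catgut 1 replicate 4. Against treadmill catgut 2 stood at -0.49 (95% interval -1.19 to 0.214) and against control at -0.41 (-1.12 to 0.296). Chac1 had the widest spread of the well expressed members, with an SD within groups of 0.591 on the log2(FPKM + 1) scale, and 94.0% of 1980 genes at a level within 2-fold of its own had a smaller one.

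Sesn2 encodes sestrin 2, which restrains mTORC1 when leucine is low (ENSRNOG00000042785, chromosome 5 from 150684133 to 150704117, minus strand). Its level was 1.61, 1.79 and 2.24 FPKM (lowest, median, highest) in control and 1.48, 2.02 and 3.01 in treadmill. It was 1.57, 2.39 and 2.90 in catgut 1 and 1.68, 2.03 and 2.96 in catgut 2. All 3 exercised groups had higher means than control, at 2.23 ± 0.602, 2.32 ± 0.498 and 2.15 ± 0.457 against 1.83 ± 0.257 FPKM (SD, n = 6), and all overlapped with it. The log2 fold change against control was 0.34 in catgut 1 (SE 0.110, edgeR adjusted p = 0.394), 0.31 in treadmill (adjusted p = 0.544) and 0.23 in catgut 2 (adjusted p = 0.392). These 3 values share the control libraries, and the first 2 had an unadjusted edgeR p under 0.05. The exact permutation test gave p = 0.0866 for catgut 1 and 0.201 for treadmill against control. Without treadmill replicate 4 the treadmill value was 0.19. Deviations of Sesn2 went with the summed endothelial markers (r = 0.63 on log2(FPKM + 1), 0.62 on the TMM scale), whose median was 33.7 FPKM in control, 39.2 in treadmill, 39.7 in catgut 1 and 49.5 in catgut 2. The same deviations had r = 0.62 and 0.41 with the fibroblast markers and -0.55 and -0.51 with the skeletal muscle markers. The part of these markers was not tested.

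Trib3 and Asns, an ATF4-induced pseudokinase and the enzyme asparagine synthetase, were barely detected. Trib3 (ENSRNOG00000007319, chromosome 3 from 147813473 to 147819571, minus strand) ran from 0.101 to 0.408 FPKM in control, from 0.0442 to 0.280 in treadmill, from 0 to 0.309 in catgut 1 and from 0 to 0.213 in catgut 2. The medians were 0.158, 0.210, 0.145 and 0.0912. It had at most 51 counts, and 7 of the 24 libraries were at or under 12 counts, taken as the limit of detection, of which 2 were at 0. Its log2 fold change of -1.05 in catgut 2 against control had a 95% interval of -2.58 to 0.464 (edgeR adjusted p = 0.490), which leaves a difference undecided. The exact permutation test gave p = 0.0584 and 0.430 adjusted over the 60 tests.

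Asns (ENSRNOG00000007546, chromosome 4 from 33743364 to 33761163, minus strand) ran from 0.0783 to 0.809 FPKM in control, from 0.119 to 0.452 in treadmill, from 0.0891 to 0.665 in catgut 1 and from 0.0799 to 0.541 in catgut 2, with medians of 0.277, 0.253, 0.245 and 0.330. It had between 10 and 115 counts, and its highest value was that of control replicate 4. The sign of its treadmill against control value, -0.25, turned to 0.14 without that library. Its interval there, -1.36 to 0.863, leaves differences of more than 2-fold in the lower direction undecided.

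**Figure D3:**
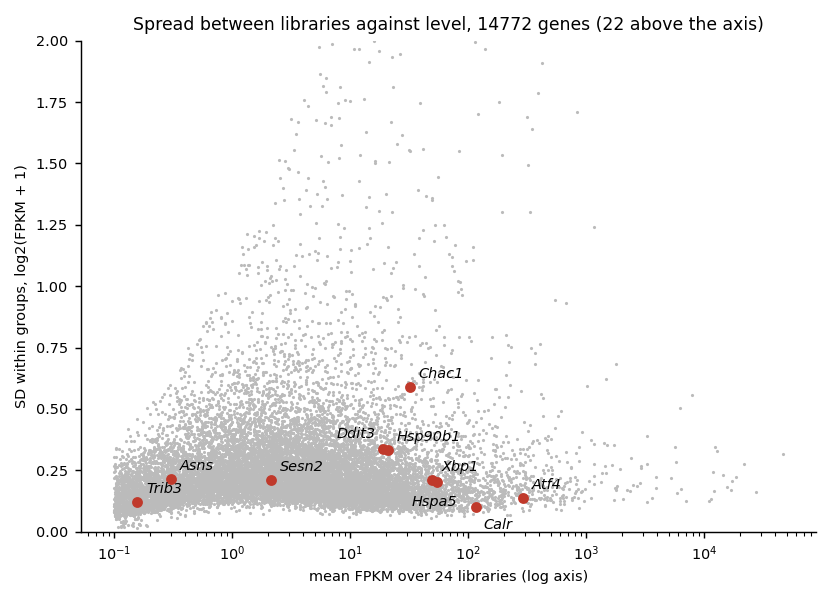
SD within groups on the log2(FPKM + 1) scale against mean FPKM (log axis) for 14772 tested genes in grey, of which 22 lie above the axis, with the 10 genes in red. Calr lies at the lower edge of the cloud at its level and Chac1, at 0.591, near the upper part, while the scale compresses levels under 1, those of Trib3 and Asns included.

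The 10 genes were next compared with each other over the 24 libraries, as deviations from group means, for 45 pairs. Pairs were tested with 100000 permutations within groups and adjusted over the 45. On log2(FPKM + 1), 3 pairs passed in both Pearson's r and Spearman's rho. All 3 lay among the 6 pairs of Hspa5, Hsp90b1, Xbp1 and Calr. Hspa5 and Hsp90b1 had r = 0.842 (permutation p = 3e-05, adjusted 0.00135) and rho = 0.741 (p = 0.00012, adjusted 0.0054), with r = 0.788 without the 2 libraries farthest from the median of Hspa5. Xbp1 and Calr had r = 0.719 (permutation p = 0.00029, adjusted 0.00652) and rho = 0.670 (p = 0.00091, adjusted 0.0205), with r = 0.603 without the 2 farthest. Hspa5 and Xbp1 had r = 0.679 (permutation p = 0.00047, adjusted 0.00705) and rho = 0.620 (p = 0.00209, adjusted 0.0313), with r = 0.513 without the 2 farthest.

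These relations depended on the scale. FPKM divides by the total of a library, and the TMM factor corrects that total for its composition. The factors ran from 0.882 to 1.17, and their deviations went with those of Hsp90b1 (r = 0.88), Hspa5 (0.74), Calr (0.66), Sesn2 (0.66) and Xbp1 (0.65) on log2(FPKM + 1). The TMM scale was not free of the factor either. There its r was 0.74 with Hsp90b1, -0.62 with Calr and -0.56 with Atf4. With Sesn2, Hspa5 and Xbp1 it was 0.33, 0.18 and 0.08. On TMM-scaled log2 CPM 0 of the 45 pairs passed, the lowest adjusted p being 0.252. There Hspa5 and Hsp90b1 had r = 0.531 (permutation p = 0.0364, adjusted 0.325) and rho = 0.504 (p = 0.0316, adjusted 0.269), with r = 0.499 without the 2 farthest. Xbp1 and Calr had r = 0.340 (permutation p = 0.122) and Hspa5 and Xbp1 had r = 0.390 (p = 0.0812). Hsp90b1 and Calr turned from r = 0.554 to -0.505 (permutation p = 0.0101, adjusted 0.252).

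Within groups, the r of Hspa5 and Hsp90b1 on the TMM scale was -0.05 in control, -0.50 in treadmill, 0.70 in catgut 1 and 0.81 in catgut 2, over 6 libraries each. On log2(FPKM + 1) it was 0.39, 0.87, 0.88 and 0.93. The difference between groups was not tested.

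**Figure D4:**
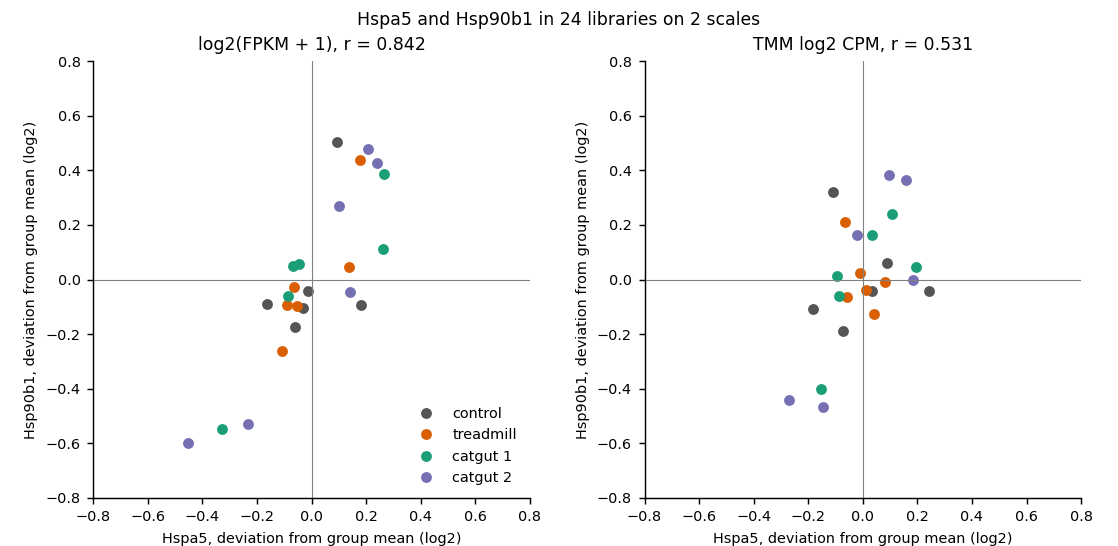
Hsp90b1 against Hspa5 as deviations from their group means in log2 units, for 24 libraries coloured by group, on log2(FPKM + 1) at left and TMM-scaled log2 CPM at right. The points follow a line at left, with r = 0.842, and scatter more widely at right, with r = 0.531.

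The same held for the wider pathway. On log2(FPKM + 1), 11 of 18 other ER chaperones and folding enzymes with a mean of at least 1 FPKM had r over 0.5 with Hspa5 (median 0.580), as did 9 of 12 genes of ER-associated degradation (median 0.577) and 30.7% of all 10474 genes (median 0.335). On the TMM scale these were 2 of 18 (median 0.154), 1 of 12 (median 0.0746) and 2.64% of all genes (median -0.01). For Ddit3, 0 of 19 ER chaperones had r over 0.5 on either scale, with medians of -0.01 and -0.18, beside 4.33% and 6.05% of all 10474 genes (medians 0.04 and -0.01). Among stress sensors and their transducers 1 of 16 had r over 0.5 with Ddit3 on log2(FPKM + 1) and 2 of 16 on the TMM scale. Their medians were 0.14 and -0.03. Among other ATF4 and stress-induced genes these were 2 and 1 of 11 (medians -0.05 and -0.09). For ATF4 targets of amino acid supply they were 0 of 12 on both (medians -0.23 and -0.01). Of these single genes, Ppp1r15a had r of 0.71 and 0.72 with Ddit3 on these scales, and Atf3 had 0.69 on both.

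The genes closest in pattern were taken as the 2 with the highest Pearson's r of log2(FPKM + 1) over the 24 libraries, out of 9393 genes, and are a description with no test. For Ddit3 they were Nit2 (r = 0.885, 0.863 on the TMM scale) and Slc2a1 (0.835 and 0.826). For Hsp90b1 they were Nckap1 (0.933 and 0.843) and Edrf1 (0.917 and 0.848), and for Hspa5 Ube2d2 (0.860 and 0.735) and Stam (0.842 and 0.695). Atf4 was closest to Bag2 (0.793 and 0.798) and Flywch1 (0.775 and 0.819). Chac1 was closest to Iqsec1 (0.742 and 0.727) and R3hdm2 (0.668 and 0.705), Sesn2 to Lama4 (0.821 and 0.718) and Akap12 (0.819 and 0.702), and Xbp1 to Zmym3 (0.821 and 0.654) and Trim28 (0.815 and 0.574). For Calr, Ctc1 (0.894 and 0.742) and Lgmn (0.821 and 0.425) came first. Trib3, near its limit of detection, was closest to RT1-CE10 (0.616 and 0.599) and RT1-A2 (0.587 and 0.487), and Asns to Vps28 (0.661 and 0.398) and Sp100 (0.660 and 0.604). The values of Lgmn and Vps28 are those that dropped most between the scales.

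The other genes of the pathway were read from 5 lists with 83 tested genes, the 10 included. At the adjusted threshold edgeR called 0 of the 83 in treadmill against control, catgut 1 against treadmill, catgut 1 against control and catgut 2 against catgut 1. It called 1 in catgut 2 against treadmill, where 0.237% of all genes passed, and 1 in catgut 2 against control, where 0.508% did. At an unadjusted p under 0.05, 4 were higher and 10 lower in treadmill against control, where 9.12% of all genes passed in either direction. Against treadmill, 9 were higher and 1 lower in catgut 1 (6.93% of all genes), and 13 higher and 0 lower in catgut 2 (10.7%). Against control, 8 were higher and 2 lower in catgut 1 (9.84%), and 7 higher and 4 lower in catgut 2 (16.4%). In catgut 2 against catgut 1, 1 was higher and 1 lower (3.26%). Both called genes act in ER-associated degradation.

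Selenos encodes a selenoprotein of the ER membrane that joins the export machinery for misfolded proteins. Its level was 20.03, 21.1 and 26.5 FPKM (lowest, median, highest) in treadmill and 26.6, 29.4 and 32.9 in catgut 2, so that 6 of 6 catgut 2 libraries lay above every treadmill library. It was 21.4, 24.7 and 27.7 in control and 22.2, 28.4 and 32.7 in catgut 1. It rose in catgut 2 against treadmill by a log2 fold change of 0.40 (SE 0.0561, edgeR adjusted p = 0.0153). With limma on log2(FPKM + 1) the adjusted p was 0.0633, and leaving out single libraries it was at most 0.0606.

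Edem1 encodes a lectin that directs misfolded glycoproteins to degradation and is a known target of XBP1. It measured 0.942, 1.05 and 1.64 FPKM (lowest, median, highest) in control, 0.686, 1.14 and 1.93 in treadmill, 1.42, 1.65 and 2.47 in catgut 1 and 1.56, 1.89 and 2.91 in catgut 2. Of the catgut 2 libraries 4 of 6 lay above every control. It rose in catgut 2 against control by a log2 fold change of 0.84 (SE 0.167, edgeR adjusted p = 0.0495), close to the threshold, and the adjusted p was 0.0897 with limma on log2(FPKM + 1) and at most 0.117 without single libraries. Against treadmill catgut 2 stood at 0.74 (adjusted p = 0.162), and catgut 1 against control at 0.62 (adjusted p = 0.264).

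ER chaperones and folding enzymes, 20 genes tested, had small differences. In treadmill against control 16 of 20 log2 fold changes were below 0 and the median was -0.11, against 0.00 over all genes. There 0 passed the adjusted threshold and 3 were lower at the unadjusted one, beside 9.12% of all genes in either direction. In catgut 1 against treadmill 17 of 20 were above 0 (median 0.10, and -0.01 over all genes). In catgut 2 against treadmill 16 of 20 were (median 0.10, and 0.00 over all genes). At the unadjusted threshold 3 and 4 were higher, beside 6.93% and 10.7% of all genes in either direction, and 0 passed after adjustment. All 3 comparisons share the treadmill libraries, and the counts of signs were not tested. Against control the medians were -0.01 for catgut 1 and 0.00 for catgut 2, with 10 of 20 above 0 in each.

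Among stress sensors and their transducers, 19 genes tested, Ppp1r15a encodes GADD34, which directs the dephosphorylation of eIF2alpha. It measured 22.9, 28.5 and 48.4 FPKM (lowest, median, highest) in control and 40.0, 44.9 and 90.6 in treadmill. It was 40.6, 59.5 and 101 in catgut 1 and 33.3, 58.5 and 82.3 in catgut 2. Its log2 fold change against control was 0.90 in treadmill, 1.05 in catgut 1 and 0.94 in catgut 2 (edgeR adjusted p = 0.356, 0.295 and 0.103), and each met the criterion of the study. DESeq2 gave adjusted p of 0.0273, 0.00995 and 0.00485. Cebpb, a partner of ATF4, met it at 0.72 in catgut 1 against control (adjusted p = 0.295), with 5 of 6 libraries above every control. Eif2ak2, which encodes the eIF2alpha kinase PKR, met it at -1.05 and -1.10 in catgut 1 and catgut 2 against control (adjusted p = 0.456 and 0.205), where control replicate 4 reached 10.9 FPKM against a control median of 2.10. Without control replicate 4 these were -0.36 and -0.42. Nupr1 met it at -1.28 in treadmill against control and 0.63 in catgut 2 against treadmill (adjusted p = 0.505 and 0.265). Without control replicate 4 the first was -0.77.

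Among the other genes induced by ATF4 or stress, 13 tested, Atf3 encodes a stress-induced repressor of the ATF family. It measured 0.711, 1.72 and 8.38 FPKM (lowest, median, highest) in control and 3.41, 9.05 and 24.1 in treadmill. It was 3.65, 13.4 and 41.9 in catgut 1 and 5.20, 12.7 and 29.9 in catgut 2. The log2 fold change against control was 2.07 in treadmill, 2.50 in catgut 1 and 2.44 in catgut 2 (edgeR adjusted p = 0.410, 0.302 and 0.0899), the last with an adjusted p of 0.0448 by limma on log2(FPKM + 1) and 0.00424 by DESeq2. All 3 share the control libraries, of which control replicate 2, at 8.38 FPKM, overlapped with the exercised ones.

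Ddit4 encodes REDD1, an inhibitor of mTORC1. It measured 4.53, 19.0 and 38.1 FPKM (lowest, median, highest) in control, 5.49, 8.58 and 12.6 in treadmill, 12.4, 17.7 and 30.2 in catgut 1 and 5.94, 16.9 and 27.8 in catgut 2. Its log2 fold change was -1.13 in treadmill against control, 1.07 in catgut 1 against treadmill and 0.90 in catgut 2 against treadmill (edgeR adjusted p = 0.520, 0.193 and 0.337). DESeq2 gave an adjusted p of 0.00456 for the second. Trib1, a pseudokinase related to Trib3, met the criterion at 0.74 and 0.80 in catgut 1 and catgut 2 against control (adjusted p = 0.401 and 0.124).

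Among ATF4 targets of amino acid supply, 19 tested, Psat1 and Phgdh encode enzymes of serine synthesis, and both were expressed under 1 FPKM in all libraries. In treadmill against control they stood at -1.27 and -1.23 (edgeR adjusted p = 0.388 and 0.518). Phgdh stood at 1.26 in catgut 2 against treadmill and 1.08 in catgut 2 against catgut 1 (adjusted p = 0.242 and 1). The medians of the list lay between -0.05 and 0.09 in the 6 comparisons.

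**Figure D5:**
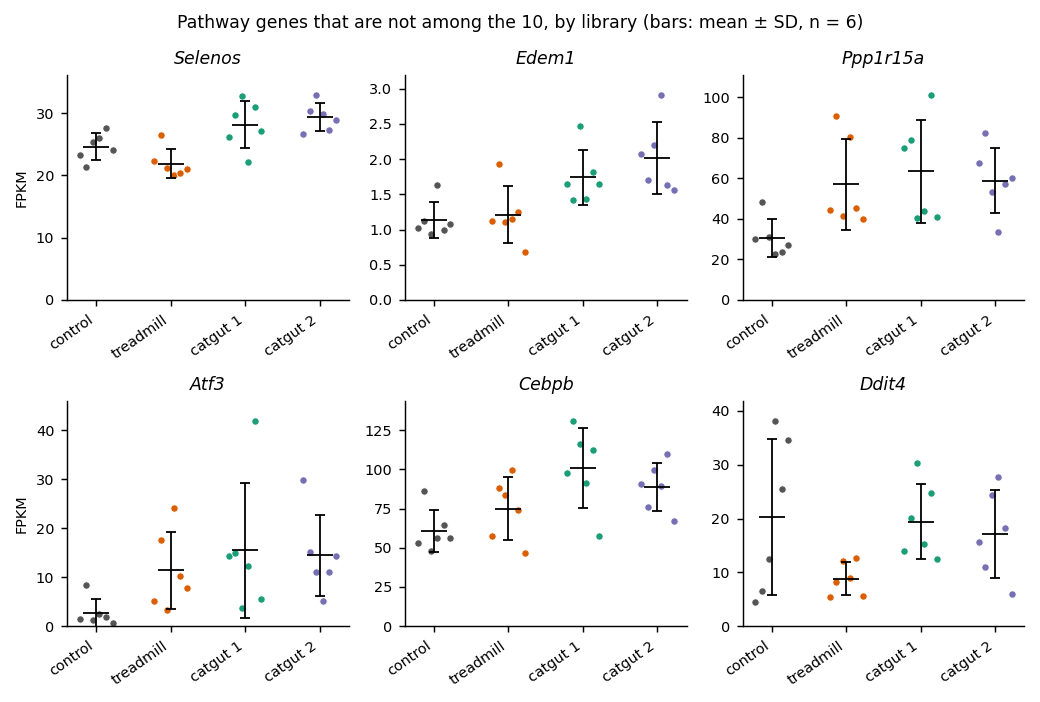
FPKM (linear axis from 0) of 6 further genes of the pathway in the 24 libraries, by group, with the mean and SD of 6 libraries as bars. Catgut 2 lies wholly above treadmill for Selenos, while the groups overlap for the other 5, and the lower end of the control bar of Atf3 lies just under 0 and is not drawn.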

How the data were processed

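The authors extracted RNA from quadriceps, sequenced poly(A) libraries and deposited 1 table that gives, for each gene and library, its count as a whole number and its FPKM. The submitters' processing notes name HISAT2 2.0 and StringTie 1.3.0, with no role or genome build given. FPKM, as deposited, is scaled by the authors to transcript length and library total. The commonest counts above 0 were 4 and 8, so 1 count may not be 1 fragment. Counts were used as listed, and 12 counts, 3 times the commonest, were taken as the limit of detection, for counting error only.

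The 14772 genes with a mean of at least 0.1 FPKM were fitted with edgeR 4.0.16 (R 4.3.3), TMM scaling and the quasi-likelihood test, 6 against 6 libraries fitted alone, and adjusted by Benjamini-Hochberg over all of them. The F test over 4 groups used all 24 libraries. All tests were two-sided. Alternatives were limma 3.58.1, DESeq2 1.42.0, other filters and scalings, a replicate block, a Y-linked covariate and omission of single libraries. Exact permutation tests and correlations used Python 3.11.15 and SciPy 1.17.1. The edgeR step was also run on simulated counts for treadmill against control, and the outcome is not given here. The labels state no pairing of the libraries by replicate number, and none was used in the main fits. Libraries are 1 per rat, and p-values measure the spread between them.

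The 10 genes, the lists and the comparisons were chosen with earlier results of these data known. Named were all 10 genes, the 2 genes closest to each in pattern, and list genes past the adjusted threshold or the criterion of the study. The figure of pathway genes shows 6 of these, chosen after their values were seen, as was the choice to give correlations on 2 scales. Values of the authors' own comparisons were not used.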

Additional observations from a re-analysis of the deposited data

Results flagged for a closer look

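Of 40 groups of 6 libraries, 10 genes in 4 groups, 1 held a library set apart from the rest by Dixon's criterion, of which chance gives about 1 in 20. Hsp90b1 in control replicate 4 measured 32.1 FPKM, and the next highest control 21.6, so that the gap took 0.844 of the range of the group, over the 95% critical value for 6 libraries. Without that library the log2 fold change of treadmill against control was -0.24. The same library had the highest fibroblast sum of the control group, at 536 FPKM, and their part in the value was not tested.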

How the results depend on the processing

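Over the alternatives, 1358 log2 fold changes of the 10 genes were computed. Of these 1288 kept their direction and their side of the adjusted threshold, 69 changed sign and 1 passed the threshold (Hspa5 in catgut 1 against treadmill with DESeq2). The 10 results at an unadjusted p under 0.05 kept their direction in 229 of 229 alternatives. In 168 of the 229 the unadjusted p of the alternative was under 0.05, and in 1 the adjusted p was. The 10 were picked by their p and the alternatives reuse the same libraries, so a kept direction is weak evidence. The 2 alternatives of counts divided by 4 and of control replicate 4 and treadmill replicate 2 left out together were added after seeing the data. Comparisons that hold only 1 of these 2 libraries lost only that one, which repeats its single omission. The causes of the changes below were not tested.

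The number of all genes past the adjusted threshold depended on the tool. For treadmill against control edgeR called 8 genes and DESeq2 112. Against treadmill, these were 7 and 139 for catgut 1 and 35 and 309 for catgut 2. Against control, they were 3 and 162 for catgut 1 and 75 and 695 for catgut 2, and between the catgut groups 1 and 8. With limma on log2(FPKM + 1) the count was 3 in catgut 1 against treadmill, 21 in catgut 2 against treadmill, 8 in catgut 1 against control, 2 in catgut 2 against catgut 1 and 37 over the 4 groups, where edgeR gave 56, and with limma on log2(FPKM + 0.1) it was 4 and 2 in the first and the fourth of these. One fit over all 4 groups gave 15 for treadmill against control, 4 and 54 for catgut 1 and catgut 2 against treadmill, 20 for catgut 1 against control and 0 between the catgut groups. A Y-linked level as covariate gave 5 for treadmill against control, 12 for catgut 1 against treadmill, 150 for catgut 2 against control and 134 over the 4 groups. No filter gave 4 in treadmill against control. A minimum mean of 1 FPKM, or counts divided by 4, gave 0 in catgut 2 against catgut 1. Without control replicate 4 and treadmill replicate 2 together, treadmill against control gave 0. Without control replicate 4, catgut 1 against control gave 1. Without treadmill replicate 2, 1 of the 10 genes, Ddit3, met the criterion of the study in catgut 2 against treadmill.

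The labels state no pairing of the libraries by replicate number. Of 36 same-numbered pairs 8 correlated over 0.1, with a range of -0.447 to 0.273. Pairs with unlike numbers were not computed, so these values cannot decide whether a pairing exists. With the replicate number as a block the counts were 2 in catgut 1 against treadmill, 3 in catgut 2 against treadmill, 1 in catgut 1 against control, 0 in catgut 2 against control and 0 in catgut 2 against catgut 1, and 0 of the 10 genes passed. With the block, Selenos had an adjusted p of 0.120 and Edem1 of 0.108, and Asns in treadmill against control turned to 0.029.

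Leaving out single libraries, the count of all genes ran from 0 (without control replicate 4) to 12 (without control replicate 2) in treadmill against control and from 2 (without treadmill replicate 3) to 6 in catgut 1 against treadmill. It ran from 6 (without treadmill replicate 1) to 30 in catgut 2 against treadmill and in catgut 1 against control from 0 (control replicate 5 omitted) to 12 (catgut 1 replicate 6 omitted). It ran from 12 (without catgut 2 replicate 1) to 492 (without catgut 2 replicate 4) in catgut 2 against control, from 0 to 2 in catgut 2 against catgut 1, and from 19 (without treadmill replicate 6) to 128 (without control replicate 2) over the 4 groups. The number of the 10 genes that met the criterion of the study ran from 0 to 1 in catgut 2 against treadmill, against control and against catgut 1. Those gained were Ddit3 (without treadmill replicate 2, treadmill replicate 4 or catgut 2 replicate 4) and Chac1 (without catgut 2 replicate 1) against treadmill, and Trib3 (without catgut 2 replicate 1) against control, and the one lost was Chac1 between the catgut groups (without catgut 1 replicate 1 or 4).

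Changes of sign concerned small log2 fold changes, at most 0.27 in size. For treadmill against control, Trib3 was 0.00028 with the Y-linked covariate and 0.16 without the 2 libraries, Asns 0.0065 without them, Chac1 -0.011 with the covariate, and Atf4 -0.012 with limma at both pseudocounts and -0.042 without the 2 libraries. Calr was 0.024 in catgut 1 against treadmill with limma at both pseudocounts, and 0.00076 (pseudocount 1) and 0.00078 (pseudocount 0.1) in catgut 2 against treadmill. For catgut 2 against control it was -0.023 with the covariate and -0.024 without control replicate 4. Asns was -0.013 in catgut 1 against control with limma on log2(FPKM + 1) and 0.24 in catgut 2 against control without control replicate 4.

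Single omissions turned 20 results. For treadmill against control the values ran from -0.14 to 0.044 for Ddit3, -0.16 to 0.23 for Trib3, -0.44 to 0.14 for Asns, -0.077 to 0.024 for Xbp1, -0.24 (without treadmill replicate 3) to 0.28 for Chac1, -0.028 to 0.057 for Atf4 and -0.079 to 0.0084 for Hspa5. For catgut 1 against treadmill they ran from -0.026 to 0.029 for Calr, -0.15 to 0.47 for Asns and -0.047 to 0.15 for Sesn2. For catgut 2 against treadmill they ran from -0.11 to 0.30 for Asns, -0.077 to 0.0015 for Atf4 and -0.16 to 0.052 for Sesn2. For catgut 1 against control Asns ran from -0.39 to 0.41. For catgut 2 against control they ran from -0.024 to 0.046 for Calr, -0.35 to 0.24 for Asns and -0.069 to 0.017 for Atf4. Between the catgut groups they ran from -0.37 to 0.26 for Asns, -0.095 to 0.0088 for Xbp1 and -0.13 to 0.030 for Hsp90b1.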
